A study of Cucumis sativus with 4 samples.

Results

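The genes described here are the rows of the deposited cucumber table whose Arabidopsis homologue is a cytokinin oxidase (CKX1, CKX5, CKX6, CKX7) or a type-A response regulator (ARR4, ARR9). They number 12 of 18665 rows, from 6 of the 10 homologues listed; IPT3, ARR5, ARR6 and ARR8 were not analysed here. There are 6 oxidase rows from 4 homologues and 6 type-A rows from 2 homologues. Rows of other oxidases (CKX3 and CKX4) and other type-A regulators (ARR15 and ARR17) are not among the 12. They were read with the rest of the pathway. The deposited symbol of ARR4 (AT1G10470) is MEE7 and that of ARR9 (AT3G57040) is ATRR4, an older name that does not refer to ARR4.

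Cytokinins are adenine-derived hormones that drive cell division and carry information about nitrogen supply between root and shoot, and cytokinin oxidases (CKX) inactivate them by cleaving their side chain. A cytokinin signal runs from a histidine kinase receptor through phosphotransfer proteins to response regulators, of which the type-B ones switch genes on and the type-A ones, themselves induced by cytokinin in Arabidopsis, damp the signal. In Arabidopsis, nitrate raises cytokinin synthesis, and several type-A genes respond to nitrate through it.

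The plants were Cucumis sativus, 28 days after sowing in sand under 14 h of light. Low nitrogen plants received 1 mM nitrate and control plants 5 mM, and root and leaf were sampled from each, with 1 library per group (root low nitrogen, root control, leaf low nitrogen, leaf control). By the recipes, sulfate was 1.45 mM in the low nitrogen solution and 0.25 mM in the control solution, and chloride 1.8 mM and 0.2 mM, so an effect of nitrate and an effect of these ions cannot be told apart. The number of plants behind a library is not stated in the labels. No difference below has a replicate check, so no p-value is given. In bulk tissue, fewer cells of a type and less RNA per cell cannot be told apart.

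Values are RPKM, read counts scaled to gene length and library depth. The depth recovered from the steps between values was 3976000 reads in low nitrogen root, 4228000 in control root, 2736000 in low nitrogen leaf and 2933000 in control leaf. Leaf markers of photosynthesis and chlorophyll synthesis (7 rows from 5 of 6 homologues) summed to 6206 RPKM in low nitrogen leaf and 17077 in control leaf, against 24.1 and 31.6 RPKM in low nitrogen and control root. Root markers, mostly of the endodermis (10 rows from 4 of 6 homologues) summed to 8.42 and 5.02 RPKM in low nitrogen and control leaf, with 6 and 8 of the 10 rows listed at 0. They summed to 253.6 and 267.7 RPKM in low nitrogen and control root. The markers thus followed the organ labels.

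**Figure D1:**
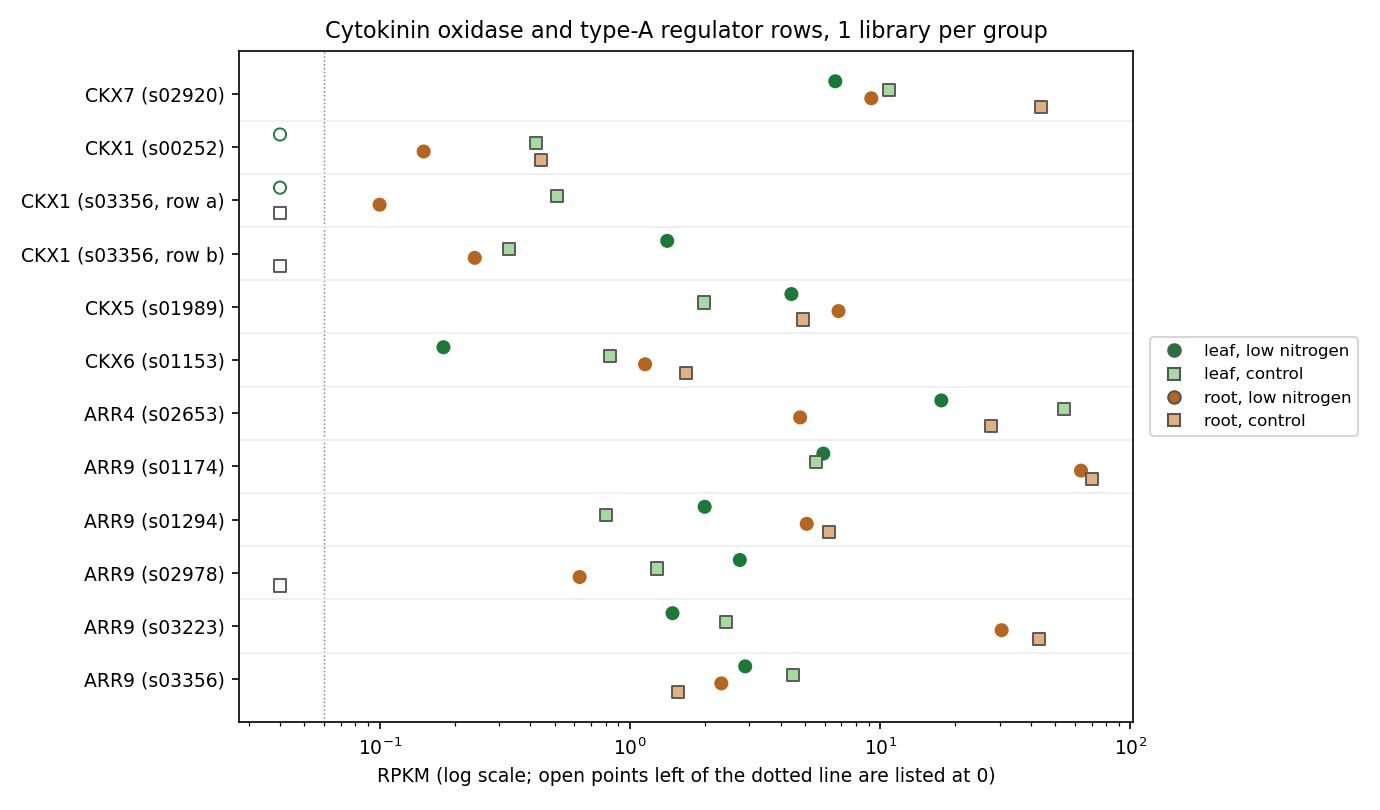
RPKM on a log axis for each of the 12 rows, with circles for low nitrogen and squares for control, green for leaf and brown for root; s with digits is the scaffold, and open points at the left are listed at 0. CKX7 and ARR4 stand apart between low nitrogen and control root (9.22 against 43.87 and 4.79 against 27.66 RPKM), while the ARR9 rows on scaffold01174 and scaffold03223 are high in both root libraries.

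In roots on low nitrogen, the cytosolic-type oxidase CKX7 and the type-A regulator ARR4 were several-fold lower than in control roots, and the other members compared stayed within a log2 ratio of 0.5. CKX7 (AT5G21482, Cucsa.299790, scaffold02920), whose Arabidopsis counterpart acts in the cytosol, was at 9.22 RPKM in low nitrogen root and 43.87 RPKM in control root. That is 4.76-fold lower, a log2 ratio of -2.13. ARR4 (AT1G10470, Cucsa.285700, scaffold02653) was at 4.79 RPKM in low nitrogen root, against 27.66 RPKM in control root, 5.77-fold lower with a log2 ratio of -2.31.

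The log2 ratios were taken of RPKM + 1, over rows with a mean of at least 1 RPKM in the libraries compared, and rows past 1 or -1 on that scale are those called higher or lower below. Adding 1 understates the change of rows with low values. In root, 8 of the 12 rows passed that filter, 0 were higher and 2 lower, where 6.17% of all 14532 genes compared were higher and 4.34% lower. Of these genes, 61 had a lower ratio than ARR4 and 70 a lower ratio than CKX7. The median log2 ratio of the 8 members was -0.28 and that of all genes 0.04. The members were chosen with earlier results of these data known. The shares and ranks given here and below therefore describe them and are not a test.

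Read counts could be recovered for 9 of the 12 rows, and their ratios are given with 95% intervals that cover counting error only. For 6 of these rows a single set of counts gave all 4 values. For the others, and for many pathway rows below, more than 1 set did. The smallest set was then taken, so their reads and intervals rest on that choice. ARR4 had 21 reads in low nitrogen root and 129 in control root, and the interval of its fold lower value was 3.62 to 9.65. No whole read counts matched the 4 values of CKX7. Had only 500 bases of it been counted, it would have had 18 reads in low nitrogen root and 93 in control root, with an interval of 2.91 to 8.56-fold lower.

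The remaining oxidases among the members were low in root. CKX5 (AT1G75450, Cucsa.231890, scaffold01989) was at 6.82 RPKM in low nitrogen root and 4.92 RPKM in control root, with 56 and 43 reads. The ratio of 1.39 had a counting interval of 0.914 to 2.11, which includes 1. CKX6 (AT3G63440, Cucsa.166070, scaffold01153) was at 1.15 RPKM in low nitrogen root and 1.67 RPKM in control root. The sum over the 6 oxidase rows of the members was 17.7 RPKM in low nitrogen root and 50.9 RPKM in control root. CKX7 made 52.1% and 86.2% of it. Rows of CKX3 and CKX4 are outside that sum. CKX4 (scaffold01136) was at 1.74 RPKM in low nitrogen root and 10.13 RPKM in control root.

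CKX1 (AT2G41510), a vacuolar oxidase in Arabidopsis, had 3 rows that did not pass the filter in any comparison. The row on scaffold00252 (Cucsa.018150) was at 0.15 RPKM in low nitrogen root and 0.44 in control root, and listed at 0 in low nitrogen leaf against 0.42 in control leaf. It rests on at most 3 reads in a library. The other rows lie next to each other in the table, both on scaffold03356. The first (Cucsa.338280) was at 0.10 RPKM in low nitrogen root, listed at 0 in control root and low nitrogen leaf, and at 0.51 RPKM in control leaf. The second (Cucsa.338290) was at 0.24 RPKM in low nitrogen root and listed at 0 in control root, and at 1.41 RPKM in low nitrogen leaf against 0.33 in control leaf, with 4 reads and 1 read in the leaf libraries. No difference in CKX1 was detectable at this depth.

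ARR9 (AT3G57040), a type-A regulator like ARR4, was the homologue of 5 cucumber rows, which may share reads. The highest of them in root (Cucsa.169830, scaffold01174) was at 63.5 RPKM in low nitrogen root and 70.5 RPKM in control root, and its ratio of 0.901 had a counting interval of 0.772 to 1.05. With 311 and 367 reads this is the best measured of the members, and its difference lay within counting error. The copy on scaffold03223 (Cucsa.330530) was at 30.6 RPKM in low nitrogen root and 43.1 RPKM in control root, 1.41-fold lower with an interval of 1.11 to 1.79. Its log2 ratio of -0.48 was short of the size for a call.

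No difference in the low ARR9 copies was detectable in root at this depth, as their counting intervals included 1. The interval of the ratio was 0.469 to 1.4 for the copy on scaffold01294 and 0.407 to 5.95 for the copy on scaffold03356. For the copy on scaffold02978, which did not pass the filter, it ran from 0.2 upwards. These intervals do not show that the copies were unchanged. The copy on scaffold01294 (Cucsa.188180) was at 5.09 RPKM in low nitrogen root and 6.25 RPKM in control root. The copy on scaffold03356 (Cucsa.337890) was at 2.32 RPKM in low nitrogen root and 1.56 RPKM in control root, with 7 and 5 reads. The copy on scaffold02978 (Cucsa.307960) had 0.63 RPKM and 2 reads in low nitrogen root and was listed at 0 in control root. Summed over the 5 rows, ARR9 was at 102 RPKM in low nitrogen root and 121 RPKM in control root.

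**Figure D2:**
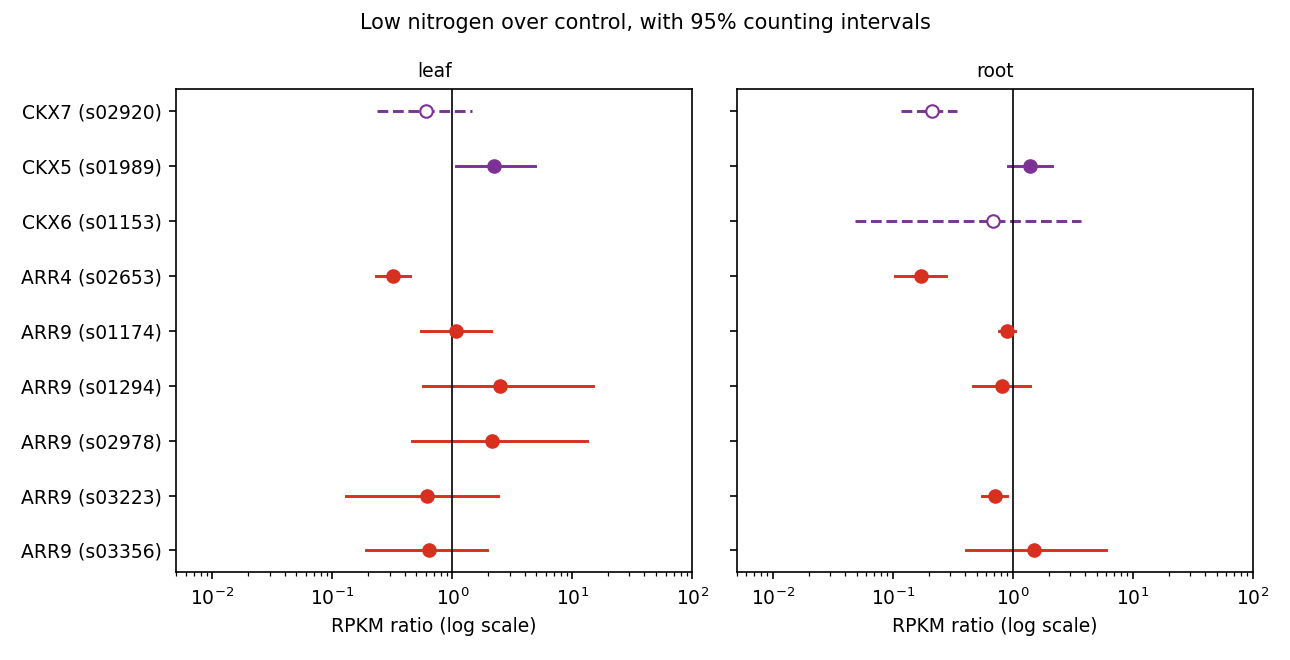
RPKM in low nitrogen divided by RPKM in control on a log axis, leaf at left and root at right, for each member compared; bars are 95% counting intervals from recovered reads, and open points with dashed bars assume 500 counted bases. ARR4 lies left of 1 in both organs (0.323 in leaf and 0.173 in root), and CKX7 does so in root at 0.210.

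In leaves on low nitrogen, ARR4 was again lower and no member was called higher. Without the added 1, the RPKM ratios of CKX5 (2.23) and the ARR9 copies on scaffold01294 (2.49) and scaffold02978 (2.15) were above 2. Of these, CKX5 alone had a counting interval that excluded 1 (1.08 to 4.88). ARR4 was at 17.6 RPKM in low nitrogen leaf and 54.4 RPKM in control leaf, with 53 and 176 reads. It was 3.10-fold lower, the counting interval being 2.27 to 4.30, with a log2 ratio of -1.58. Of the 13384 genes compared in leaf, 168 had a lower ratio.

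By the same rule, 8 members were compared in leaf, 0 were higher and 1 was lower, against 13.6% and 3.59% of all genes. As in root, these shares are not a test, because the members were chosen with earlier results known. The median log2 ratio of the members was -0.19 and that of all genes 0.33, so ratios in leaf are also given relative to that median. On this scale ARR4 was at -1.91 and the count of members stayed at 0 higher and 1 lower, where 5.91% and 7.51% of all genes were higher and lower. Scaled by the median ratio of the libraries instead, 5.97% of all genes were higher in low nitrogen leaf and 9.05% lower. The summed leaf markers also differed between these libraries, with 6206 RPKM in low nitrogen leaf and 17077 RPKM in control leaf, and their part in the leaf results was not tested.

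CKX7 was at 6.62 RPKM in low nitrogen leaf and 10.88 RPKM in control leaf, a log2 ratio of -0.64, or -0.97 relative to the median of all genes. Under an assumed 500 counted bases the interval of its ratio of 0.608 was 0.235 to 1.45 and included 1. CKX5 was at 4.42 RPKM in low nitrogen leaf and 1.98 RPKM in control leaf. Its ratio of 2.23, from 25 and 12 reads, had an interval of 1.08 to 4.88 and a log2 ratio of 0.86, or 0.53 relative to the median. CKX6 was at 0.18 RPKM in low nitrogen leaf and 0.83 RPKM in control leaf and was too low to be compared.

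The ARR9 copies in leaf rest on 3 to 20 reads in each library, and all 5 counting intervals include 1. The copy on scaffold01174 was at 5.93 RPKM in low nitrogen leaf and 5.54 RPKM in control leaf, with 20 reads in each. The copy on scaffold03356 was at 2.89 RPKM in low nitrogen leaf and 4.49 RPKM in control leaf, and the copy on scaffold03223 at 1.48 and 2.42 RPKM. The copy on scaffold01294 was at 1.99 RPKM in low nitrogen leaf and 0.80 RPKM in control leaf, and the copy on scaffold02978 at 2.75 and 1.28 RPKM. The sum over the 6 type-A rows was 32.6 RPKM in low nitrogen leaf and 68.9 RPKM in control leaf, of which ARR4 made 53.9% and 78.9%.

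The response was also compared between the organs, as the leaf log2 ratio minus the root log2 ratio, for the 7 members that passed the filter in both. CKX7 was the 1 member past a difference of 1, at 1.49 (-0.64 in leaf and -2.13 in root), where 16.4% of 12116 genes lay at 1 or above and 5.78% at -1 or below. The median difference over all genes was 0.30, and with median ratio scaling 7.98% lay at 1 or above and 10.9% at -1 or below, with CKX7 at 1.11. For ARR4 the difference was 0.73, with -1.58 in leaf and -2.31 in root. None of these differences was tested.

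**Figure D3:**
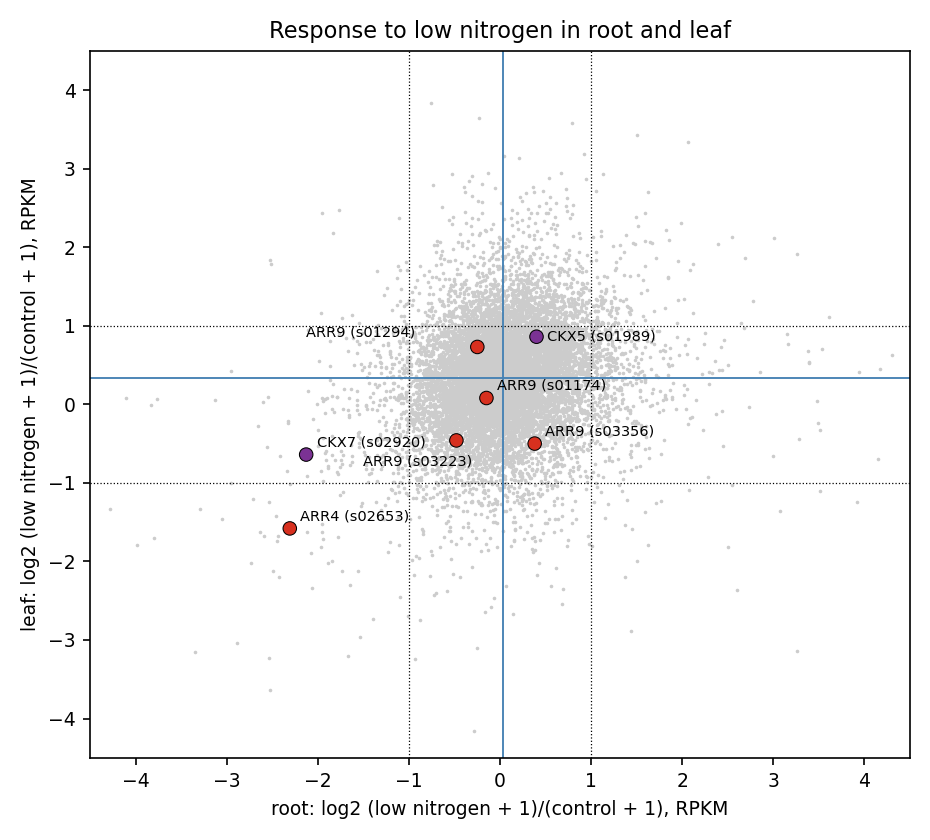
Log2 ratio of low nitrogen over control in root (x) and leaf (y) for 12116 genes (grey; 3 lie outside the axes), with oxidases in purple and type-A regulators in red; dotted lines mark ratios of -1 and 1 and blue lines the medians of the genes drawn. ARR4 lies at -2.31 in root and -1.58 in leaf, CKX7 at -2.13 and -0.64, and the other members near the centre.

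Between the organs, ARR4 and ARR9 had opposite distributions, since ARR4 was higher in leaf and the most abundant ARR9 copies were higher in root. On low nitrogen, ARR4 was at 17.6 RPKM in leaf and 4.79 RPKM in root, 3.67-fold higher in leaf with a counting interval of 2.17 to 6.40. In the controls it was at 54.4 RPKM in leaf and 27.7 RPKM in root, 1.97-fold higher with an interval of 1.56 to 2.49, and its log2 ratio of 0.95 was just under the size for a call. Relative to the median of all genes, which was -0.65 for leaf over root in the controls, it was 1.60.

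The ARR9 copy on scaffold01174 was at 5.93 RPKM in leaf and 63.5 RPKM in root on low nitrogen, 10.7-fold lower in leaf (interval 6.81 to 17.8). In the controls it was at 5.54 RPKM in leaf and 70.5 RPKM in root, 12.7-fold lower (8.12 to 21.1). The copy on scaffold03223 was 20.7-fold lower in leaf on low nitrogen (7.86 to 77.0) and 17.8-fold lower in the controls (8.48 to 45.0). The copy on scaffold01294 went the same way, 2.56-fold lower in leaf on low nitrogen (1.08 to 6.98) and 7.81-fold lower in the controls (2.47 to 40.0). Its log2 ratio on low nitrogen was -1.03, but -0.73 relative to the median of all genes, so that call was lost on this scale, as it was with median ratio scaling (-0.81), upper quartile scaling (-0.84) and a pseudocount of 5 (-0.53).

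The copies on scaffold02978 and scaffold03356 did not share that pattern. The copy on scaffold02978 was at 2.75 RPKM in leaf and 0.63 RPKM in root on low nitrogen, a ratio of 4.37 with an interval of 0.779 to 44.2 that included 1, and at 1.28 RPKM in leaf and listed at 0 in root in the controls. The copy on scaffold03356 was at 2.89 RPKM in leaf and 2.32 RPKM in root on low nitrogen, and at 4.49 and 1.56 RPKM in the controls. The intervals of its leaf to root ratios included 1 in both solutions.

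CKX7 was at 6.62 RPKM in leaf and 9.22 RPKM in root on low nitrogen, a log2 ratio of -0.42. In the controls it was at 10.88 RPKM in leaf and 43.87 RPKM in root, a log2 ratio of -1.92, or -1.27 relative to the median of all genes. CKX5 had log2 ratios of leaf over root of -0.53 on low nitrogen and -0.99 in the controls. On low nitrogen 2 of 8 members compared were higher in leaf and 3 lower, against 20% and 31.2% of 15057 genes. In the controls 1 was higher and 4 lower, against 17.6% and 40.4% of 14711 genes. Those higher were ARR4 and the ARR9 copy on scaffold02978 on low nitrogen, and the ARR9 copy on scaffold03356 in the controls. These ARR9 calls rest on 6 and 2 reads and on 10 and 5 reads in leaf and root. Their counting intervals, 0.779 to 44.2 and 0.898 to 10.8, included 1. With median ratio scaling 25.5% and 27.3% of all genes were higher and lower in control leaf.

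**Figure D4:**
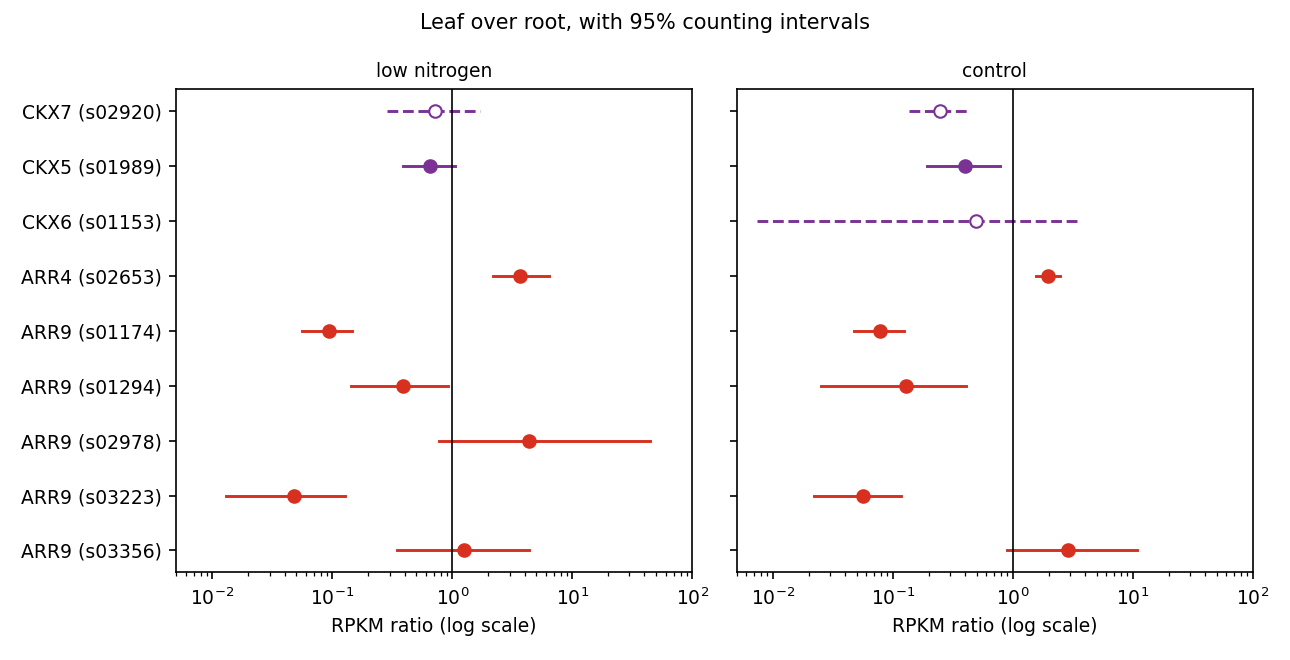
RPKM in leaf divided by RPKM in root on a log axis, on low nitrogen at left and in the controls at right; bars are 95% counting intervals, open points with dashed bars assume 500 counted bases. ARR4 lies right of 1 (3.67 on low nitrogen and 1.97 in the controls), and the ARR9 copies on scaffold01174 and scaffold03223 lie far left of it.

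The order of the levels followed from these differences. In low nitrogen root the ARR9 copies on scaffold01174 and scaffold03223 led, followed by CKX7, CKX5, the ARR9 copy on scaffold01294 and ARR4, the last 4 between 9.22 and 4.79 RPKM. In control root the same ARR9 copies had CKX7 between them, at 43.87 RPKM beside 43.14 for the copy on scaffold03223, and ARR4 came next. ARR4 was the highest member in both leaf libraries and CKX7 was next. Among all genes listed above 0, ARR4 stood at the 39.1st percentile in low nitrogen root and the 76.9th in control root, and at the 68.9th in low nitrogen leaf and the 89.3rd in control leaf. CKX7 stood at the 52.2nd percentile in low nitrogen root and the 84.6th in control root.

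The 3 rows of the whole table with levels nearest to those of CKX7 over the 4 libraries, by Euclidean distance of log2(RPKM + 1), were homologues of AT1G28410, AT2G20830 and TED6 (AT1G43790), at distances of 0.67, 0.68 and 0.76. The nearest (scaffold01017) was at 12.7 RPKM in low nitrogen root and 32.3 in control root, and at 8.26 RPKM in low nitrogen leaf and 11.6 in control leaf.

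The rest of the cytokinin pathway was read from a list of 56 Arabidopsis genes, of which 31 had 58 rows in the table. The list, like the members, was chosen with earlier results of these data known. In root, 42 rows were compared, 3 were higher and 2 lower, near the 6.17% and 4.34% of all genes, and the median log2 ratio was 0.07. In leaf, 34 were compared, 7 were higher and 1 lower, where 13.6% and 3.59% of all genes were higher and lower, with a median of 0.24, below the 0.33 of all genes. Relative to that 0.33, 3 were higher and 2 lower in leaf, where 5.91% and 7.51% of all genes were. With at most 10 rows compared in a group, 0 calls or a single call in one of the groups below cannot be set apart from these shares.

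Among the other oxidases, CKX4 (AT4G29740, scaffold01136) was, like CKX7, lower in low nitrogen root, at 1.74 RPKM against 10.13 RPKM in control root. From 5 and 31 reads, the smallest of 7 sets of counts giving its values, it was 5.82-fold lower (counting interval 2.25 to 19.2). It was listed at 0 in both leaf libraries, and it was named after its values were seen, as its mean over the libraries was below 5 RPKM. The other 3 rows of that role, all CKX3, were too low to be compared.

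Of the isopentenyltransferases (IPT), which make the first cytokinin precursor, 0 rows were higher and 1 lower of 5 compared in root, against 6.17% and 4.34% of all genes. IPT5 (AT5G19040) on scaffold02244 was at 7.27 RPKM in low nitrogen root and 17.7 RPKM in control root, 2.43-fold lower with an interval of 1.57 to 3.87, and listed at 0 in both leaf libraries. The IPT5 copy on scaffold02229 was at 3.88 RPKM in low nitrogen root and 7.29 in control root. In leaf it was at 13.7 RPKM on low nitrogen and 5.01 RPKM in control, 2.73-fold higher with an interval of 1.60 to 4.84. In leaf 2 of the 3 rows compared were higher and 0 lower, against 13.6% and 3.59% of all genes. The other higher row was IPT2 (AT2G27760), an enzyme that modifies tRNA, at 2.04 RPKM in low nitrogen leaf and 0.48 RPKM in control leaf. Relative to the median of all genes, the leaf log2 ratios were 0.96 for IPT5 on scaffold02229 and 0.71 for IPT2, so 0 of the 3 rows stayed past 1.

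LOG enzymes release the active base from its nucleotide. Of 8 LOG rows compared in leaf 3 were higher and 0 lower, against 13.6% and 3.59% of all genes. Of 10 in root 1 was higher and 0 lower, against 6.17% and 4.34%. LOG5 (AT4G35190) on scaffold00791 was at 179 RPKM in low nitrogen leaf and 48.9 RPKM in control leaf, 3.67-fold higher with an interval of 2.62 to 5.23. LOG1 (AT2G28305) on scaffold01024 was at 76.6 RPKM in low nitrogen leaf and 33.1 RPKM in control leaf, 2.31-fold higher (1.68 to 3.22). LOG5 on scaffold01444 was at 16.8 RPKM in low nitrogen leaf and 6.84 RPKM in control leaf, a ratio of 2.45 whose interval of 0.954 to 7.04 included 1. The same scaffold01444 row was also the LOG row counted as higher in root, at 2.88 RPKM on low nitrogen and 0.68 RPKM in control, with 4 reads and 1 read. Relative to the median of all genes, the leaf log2 ratios of these rows were 1.52, 0.86 and 0.85, so LOG5 on scaffold00791 alone of the 3 stayed past 1. The other LOG1 row (scaffold03904) was at 10.98 RPKM in low nitrogen leaf and 11.07 RPKM in control leaf, a log2 ratio of -0.01.

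Receptors, which sense cytokinin at the membrane, had 0 of 4 rows higher or lower in either organ. In root 6.17% and 4.34% of all genes were higher and lower, and in leaf 13.6% and 3.59%. With so few rows, 0 calls here or in the next roles do not show that a role was unchanged. The phosphotransfer proteins had 1 of 7 rows higher in root, where 6.17% of all genes were higher, and 0 of 5 higher or lower in leaf. The higher row was AHP4 (AT3G16360, scaffold02615), at 4.85 RPKM on low nitrogen and 1.20 RPKM in control. The most abundant AHP4 row in root (scaffold01144) was at 48.73 and 38.88 RPKM, with a counting interval of 0.928 to 1.70. A further AHP4 row (scaffold03588) was at 1.35 RPKM in low nitrogen root and 1.27 RPKM in control root. Type-B regulators had 0 of 6 rows higher or lower in root and 1 of 5 higher in leaf, ARR12 (AT2G25180, scaffold01037) at 5.16 RPKM on low nitrogen and 1.27 RPKM in control, where 13.6% of all genes were higher. A further type-A row, ARR15 (AT1G74890), was at 14.2 RPKM in low nitrogen root and 13.2 in control root, and at 5.52 and 5.15 RPKM in low nitrogen and control leaf.

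Cytokinin response factors (CRF), of the AP2/ERF family, had 0 of 4 rows higher or lower in root, against 6.17% and 4.34% of all genes. In leaf 1 of 5 was higher and 1 lower, against 13.6% and 3.59% of all genes. The lower row was CRF3 (AT5G53290, scaffold00998), at 16.0 RPKM in low nitrogen leaf and 35.2 RPKM in control leaf, and the higher was CRF4 (AT4G27950, scaffold02229), at 2.28 RPKM in low nitrogen leaf and listed at 0 in control leaf. The CRF4 call rests on 2 reads in low nitrogen leaf and 0 in control leaf, the smallest of 3 sets of counts giving its values. Its counting interval, from 0.201 upwards, includes 1.

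Of the transport proteins, PUP1 (AT1G28230, scaffold01017), of a purine carrier family, was at 5.48 RPKM in low nitrogen root and 0.86 RPKM in control root, from 12 and 2 reads. It was 1 row called higher of the 3 transport rows compared in root, where 6.17% of all genes were higher. The other PUP1 row (scaffold01144), the more abundant of them in leaf, went the other way in root. There it was at 1.67 RPKM on low nitrogen and 2.55 RPKM in control, with a counting interval that included 1. In leaf that row was at 16.1 RPKM on low nitrogen and 33.1 RPKM in control, a ratio of 0.486 with an interval of 0.344 to 0.677. Its leaf log2 ratio was just short of a call, and -1.33 relative to the median of all genes. ABCG14 (AT1G31770), which in Arabidopsis exports cytokinin towards the shoot, was at 60.9 RPKM in low nitrogen root and 102.9 RPKM in control root. Its ratio of 0.592, from 528 and 949 reads, had a counting interval of 0.531 to 0.659 that excluded 1. The log2 ratio of -0.75 was short of the size for a call. AHP4, ARR12, ARR15, CRF4, PUP1, IPT2 and ABCG14, and the further rows of CRF3 and LOG1, were named after their values were seen.

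**Figure D5:**
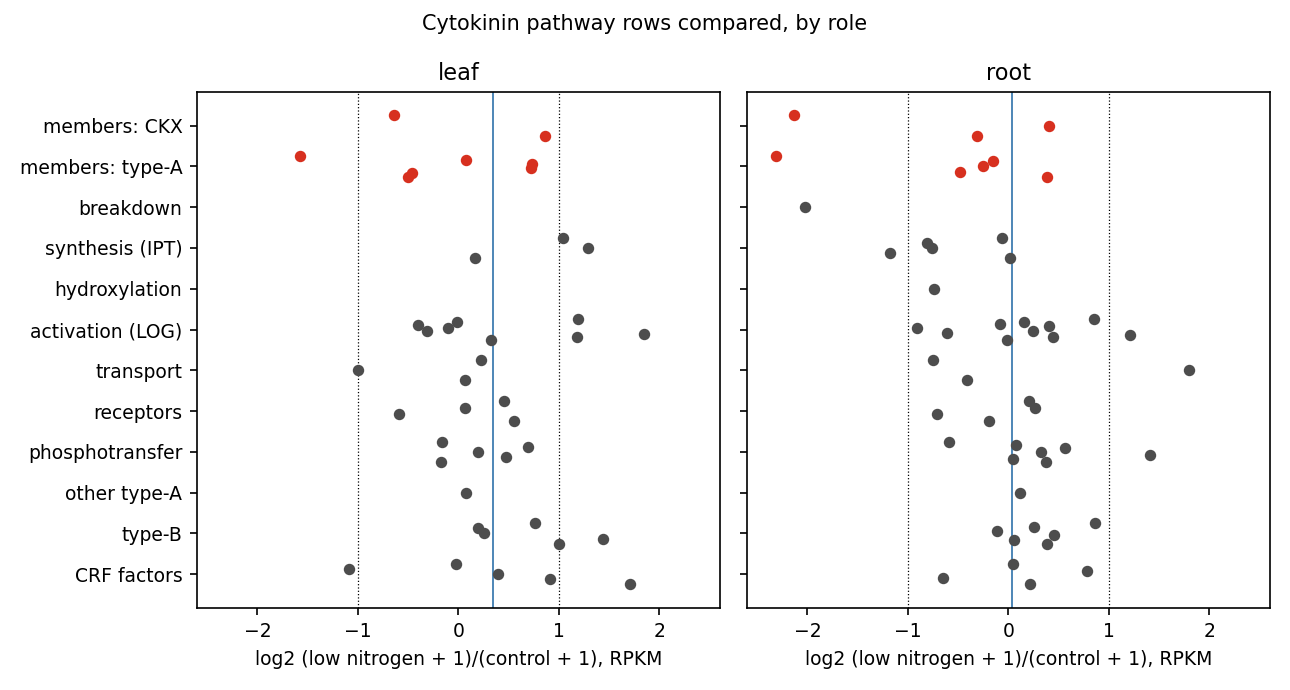
Log2 ratio of low nitrogen over control, leaf at left and root at right, for each row compared, by role, with the members in red and other pathway genes in grey; dotted lines mark -1 and 1 and blue lines the median of the genes compared in both organs. CKX7, ARR4 and CKX4 lie near -2 in root (-2.13, -2.31 and -2.02), and LOG5 on scaffold00791 lies highest in leaf at 1.85.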

How the data were processed

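The authors deposited 1 table of RPKM values for 4 libraries, with gene lengths, scaffolds, Arabidopsis homologues and symbols. The aligner named is Bowtie 0.12.9, per the submitters' processing notes. The build of the genome, the read counter and the treatment of reads that match several genes were not given in the sources used here. Members were matched by homologue ID; they and the pathway list were chosen with earlier results of these data known.

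Ratios were log2 of (RPKM + 1), over rows averaging 1 RPKM or more in the libraries compared; no test was possible with 1 library per group. Alternatives were pseudocounts of 0.1 and 5, no filter and a filter at 5 RPKM, median ratio and upper quartile scaling, and rows of 1 homologue summed. Depth was recovered as the smallest number of reads at which low values in short genes become whole reads. For each row, the smallest read counts giving all 4 values, within 0.005 RPKM, at 1 counted length from 100 bases to the deposited length were taken; 83.5% of the 14975 genes averaging 1 RPKM or more had such counts. Intervals are exact conditional (Clopper-Pearson) intervals of the ratio of counts, and cover counting error only. Other pathway genes were named at a mean of at least 5 RPKM and an absolute log2 ratio of at least 1 in either organ, except as stated. Scripts used Python 3.11.15, numpy 2.4.6, pandas 2.3.3 and scipy 1.17.1 and were tested on simulated data.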

Additional observations from a re-analysis of the deposited data

Results flagged for a closer look

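Opposite signs in leaf and root, with 1 library per group and the difference not tested, were found for 3 ARR9 copies. The copy on scaffold01174 had log2 ratios of low nitrogen over control of 0.08 in leaf and -0.15 in root. The copy on scaffold01294 had 0.73 in leaf and -0.25 in root. The copy on scaffold03356 had -0.50 in leaf and 0.38 in root. All of these ratios have counting intervals that include 1. Relative to the median of all genes the leaf ratios were -0.25, 0.40 and -0.83 and those in root -0.18, -0.29 and 0.34, so the first copy then had the same sign in both organs.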

How the results depend on the processing

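The counts of members called in root (0 higher, 2 lower) held under all 7 alternatives. The number of members compared changed with the filter. With no filter it was 12 throughout. With a filter at 5 RPKM it was 6 in root, and 3 in leaf and in the leaf minus root response. For leaf over root it was then 4 in the controls and 5 on low nitrogen. A pseudocount of 0.1 gave 3 members higher in leaf in place of 0. They were CKX5 at 1.12 and the ARR9 copies on scaffold01294 at 1.22 and scaffold02978 at 1.05. The share of all genes higher in leaf rose from 13.6% to 19.4%. That pseudocount also gave 2 higher and 1 lower in the leaf minus root response in place of 1 and 0. There the shares of all genes rose from 16.4% to 21.4% higher and from 5.78% to 7.45% lower. Median ratio scaling gave 2 lower in leaf in place of 1, the second being CKX7 at -1.05, 2 higher for leaf over root in the controls in place of 1, and 1 lower in the leaf minus root response in place of 0. The share of all genes lower in leaf rose from 3.59% to 9.05% with that scaling. For leaf over root in the controls, 25.5% were higher in place of 17.6%. In the leaf minus root response, 10.9% were lower in place of 5.78%. Upper quartile scaling gave 2 higher for leaf over root in the controls and 1 lower in the leaf minus root response. The matching shares of all genes were then 23.8% and 9.52%. For leaf over root in the controls, a pseudocount of 5 and a filter at 5 RPKM gave 0 higher, and no filter gave 2. The shares of all genes higher were 12.4%, 18.8% and 14.9%, in place of 17.6%. On low nitrogen, the pseudocount of 5 and the 5 RPKM filter gave 1 higher in place of 2. The shares of all genes higher were 13.7% and 20.4%, in place of 20%. Members lower for leaf over root on low nitrogen came to 2 in place of 3 with a pseudocount of 5, the 5 RPKM filter and both scalings. The shares of all genes lower were 20.9%, 31.6%, 26.3% (median ratio) and 26.7% (upper quartile), in place of 31.2%. In the controls, members lower came to 5 in place of 4 with a pseudocount of 0.1, and to 3 with a pseudocount of 5 and the 5 RPKM filter. The shares of all genes lower were 43.9%, 27.2% and 41.8%, in place of 40.4%. With rows of 1 homologue summed, leaf over root gave 0 higher and 2 lower in the controls in place of 1 and 4, and 1 higher and 1 lower on low nitrogen in place of 2 and 3, as 5 and 4 homologues were then compared. The shares over the whole table were then 16.8% and 38.9% in the controls, and 19.2% and 29% on low nitrogen. ARR4 ranged over the alternatives from -2.51 to -1.74 in root and from -2.01 to -1.40 in leaf, and CKX7 in root from -2.24 to -1.78. No called member changed sign. No paired analysis was possible because each group holds 1 library. Depth limits CKX1, CKX6, the ARR9 copies in leaf and the low ARR9 copies in root.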
